A study of Columba livia with 12 samples.

Results

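The 60 genes described here were chosen for wide variation from bird to bird within both groups of a study of racing pigeon flight muscle. They were taken only from genes for which the middle bird of each group stood at a similar level. RNA of m. pectoralis was sequenced bird by bird in 12 racing pigeons (Columba livia). The 7 trained birds had been through flight training and were sampled after a race of 300 km, for which they had been basketed and transported on the previous day. The 5 untrained birds were adults never trained for racing. All birds came from the same private loft and had the same environment and feed, and sex is not given in the sources used here. The effects of training, race, basket and transport cannot be told apart, because every trained bird met all of them. Birds are named by group and library number.

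The pectoral muscle pulls the wing down and does most of the work of flapping flight. In pigeons it is built largely of fast oxidative fibres that burn fat during long flights, beside a smaller class of glycolytic fibres. A tissue sample also holds blood vessels, blood, nerve and connective tissue, so a transcript's level in bulk RNA depends on the cells present and on the RNA in each of them, and these cannot be told apart here. Genes carry locus tags only. None of the 15392 tags matched the gene table used here (0 matches), so the members are described by tag, level and pattern, and no function, marker of a cell type or sequence is given for them.

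The members were chosen from the measured values. Counts were divided by the library sum and multiplied by 1e6 (CPM), and spread was taken on the log2(CPM + 1) scale. Of 15392 tags, 8218 averaged at least 5 CPM, and 5359 of these had medians of trained and untrained birds within 0.5 of each other. Leaving out 2 stretches of neighbouring tag numbers that the rule names left 5297 eligible tags. For each, the median absolute deviation (MAD, the typical distance of a bird from its group's median) was computed in each group, and the 60 tags with the largest value of the smaller MAD are the members. Both the wide spread and the like medians are therefore conditions of the choice and are given as a description. The members reached a smaller MAD of 0.483 to 1.42 with a median of 0.56, against a median of 0.119 in the 5237 other eligible tags. The last inside were A306_00001196 at 0.484 and A306_00004331 at 0.483, and the first outside were A306_00002689 and A306_00013110, both at 0.48.

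**Figure D1:**
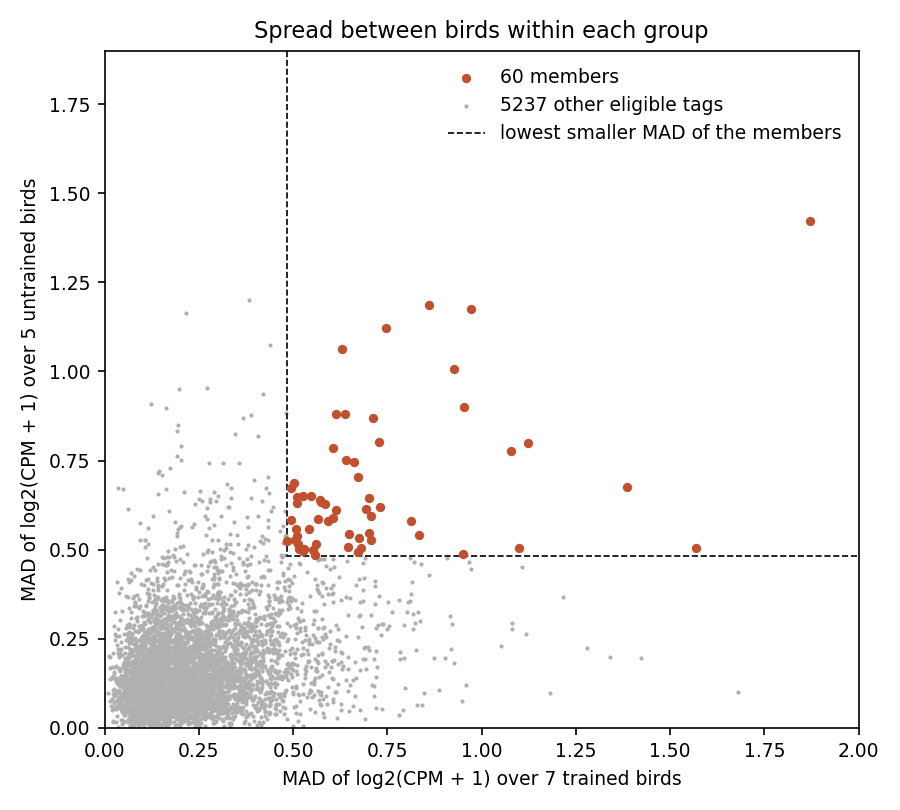
Spread between birds of 5297 eligible tags, with the MAD of log2(CPM + 1) over 7 trained birds on the x axis and over 5 untrained birds on the y axis. The members (large points) lie above and to the right of the dashed line at their lowest smaller MAD of 0.483, and A306_00000799 stands alone at 1.87 in trained and 1.42 in untrained birds.

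The choice of single members depended on single birds. With 1 of the 12 birds left out and the rule applied again, 14 to 35 of the 60 tags were chosen again, with the fewest (14) without untrained bird 12. No member (0 of 60) was chosen in all 12 of these repeats, and the median member was chosen in 5. With the members held fixed, their median smaller MAD was 0.40 to 0.52 with 1 bird left out, a value that stays high by the choice of members in these same birds. Total counts over genes lay between 13611534 (trained bird 13) and 29169918 (untrained bird 3). In trained bird 13, 11655 tags had a count, against 12546 to 13206 in the other birds, and its TMM scaling factor was 0.752, against 0.98 to 1.07.

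Members were mostly of modest abundance. Their mean level over the 12 birds ran from 5.13 to 1013 CPM with a median of 15.3 CPM, against a median of 32.3 CPM in the other eligible tags. The mean was below 10 CPM in 21 members, between 10 and 100 CPM in 34 and above in 5. Together they held 0.22% to 0.508% of the counts in trained birds and 0.222% to 0.471% in untrained birds. Counting error was small beside the spread: the MAD was at least 5.33 times the MAD that Poisson counting alone gives in trained birds and at least 6.15 times in untrained birds. These multiples describe members chosen for their spread and cover counting error only.

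Large differences between birds occurred in both groups. In 22 of the 60 members the highest and lowest bird of each group differed by more than 2 log2 units in trained and also in untrained birds, and in 7 by more than 3 log2 units. The median member covered 2.82 log2 units over the trained and 1.76 over the untrained birds. A range grows with the number of birds, here 7 against 5. The other eligible tags also had the larger median range in trained birds, 1.22 against 0.65 log2 units. The larger of a member's 2 MADs belonged to the trained birds in 30 members and to the untrained birds in 30. Over all 12 birds, the highest CPM was 11.3 times the lowest in the median of 59 members with more than 3 counts in every bird. The remaining member, A306_00005199, had 0 counts in trained bird 13, where a count of 0 allows up to 3 counts, and 53 to 401 counts in the other birds.

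A306_00000799 had the largest MAD of all members in both groups. It had 6.51 CPM in the lowest trained bird, a median of 72.7 CPM and 365 CPM in the highest trained bird. Untrained birds 2, 3, 4, 5 and 12 had 228, 197, 72.9, 63 and 10.1 CPM. Trained birds 7, 11 and 8 and untrained bird 12 were low, and the groups overlapped over nearly their whole range. The highest bird exceeded the lowest by 56.1-fold, with at least 175 counts in each bird. By this measure other members spread wider, up to 224-fold in A306_00011395, which had 4 counts in trained bird 13.

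A306_00002450 was near the floor in some birds of both groups and well above it in the others. It had 0.808 CPM in the lowest trained bird (bird 13), a median of 16.9 CPM and 35.5 CPM in the highest (bird 11). Untrained birds 2, 3, 4, 5 and 12 had 45.3, 0.823, 19.5, 40.8 and 1.33 CPM. Trained bird 13 and untrained birds 3 and 12 thus had at most 1.33 CPM, from 11, 24 and 24 counts, while no other bird was below 6.88 CPM.

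A306_00015251 was more abundant and graded. It had 28.1 CPM in the lowest trained bird, a median of 116 CPM and 273 CPM in the highest. Untrained birds 2, 3, 4, 5 and 12 had 67.9, 21, 228, 153 and 308 CPM. The low birds were trained bird 11 and untrained bird 3, and the high ones trained bird 10 and untrained bird 12.

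A306_00007030 was scarce in most birds and above 10 CPM in 4. It had 0.335 CPM in the lowest trained bird, a median of 2.84 CPM and 20 CPM in the highest. Untrained birds 2, 3, 4, 5 and 12 had 26.2, 3.53, 12.8, 1.43 and 1.94 CPM. Trained birds 6 and 13 and untrained birds 2 and 4 were the high ones.

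A306_00005088 and A306_00002174 were the members of the leading 10 with the lowest means, at 5.42 and 5.13 CPM. A306_00005088 had 0.361 CPM in the lowest trained bird, a median of 3.05 CPM and 16.8 CPM in the highest, and 11.5, 9.43, 2.77, 3.3 and 0.889 CPM in untrained birds 2, 3, 4, 5 and 12. A306_00002174 had 0.392 CPM in the lowest trained bird, a median of 2.46 CPM and 27.0 CPM in the highest, and 3.7, 7.37, 2.71, 1.13 and 1.11 CPM in untrained birds 2, 3, 4, 5 and 12. In both tags trained bird 9 was the highest bird of the study.

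A306_00004471 had 2.53 CPM in the lowest trained bird, a median of 39.9 CPM and 91.5 CPM in the highest, and 79.5, 46, 51.5, 13.5 and 16.2 CPM in untrained birds 2, 3, 4, 5 and 12. Like A306_00000799 it was lowest in trained bird 7 and highest in trained bird 13. A306_00001734 had 1.91 CPM in the lowest trained bird, a median of 7.66 CPM and 32.6 CPM in the highest, and 5.67, 23.1, 13.5, 1.03 and 5.05 CPM in untrained birds 2, 3, 4, 5 and 12. It was highest in trained bird 7, the bird in which A306_00004471 was lowest.

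A306_00010017 had 0.441 CPM in the lowest trained bird, a median of 5.62 CPM and 16.8 CPM in the highest, and 3.93, 5.28, 2.6, 12.8 and 24.8 CPM in untrained birds 2, 3, 4, 5 and 12. A306_00010990 had 1.4 CPM in the lowest trained bird, a median of 14.9 CPM and 31.0 CPM in the highest, and 9.71, 38.1, 18.6, 26.3 and 8.22 CPM in untrained birds 2, 3, 4, 5 and 12. Trained bird 13 was the lowest bird in both, and untrained bird 12 was the highest of the study in A306_00010017 and the lowest untrained bird in A306_00010990.

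**Figure D2:**
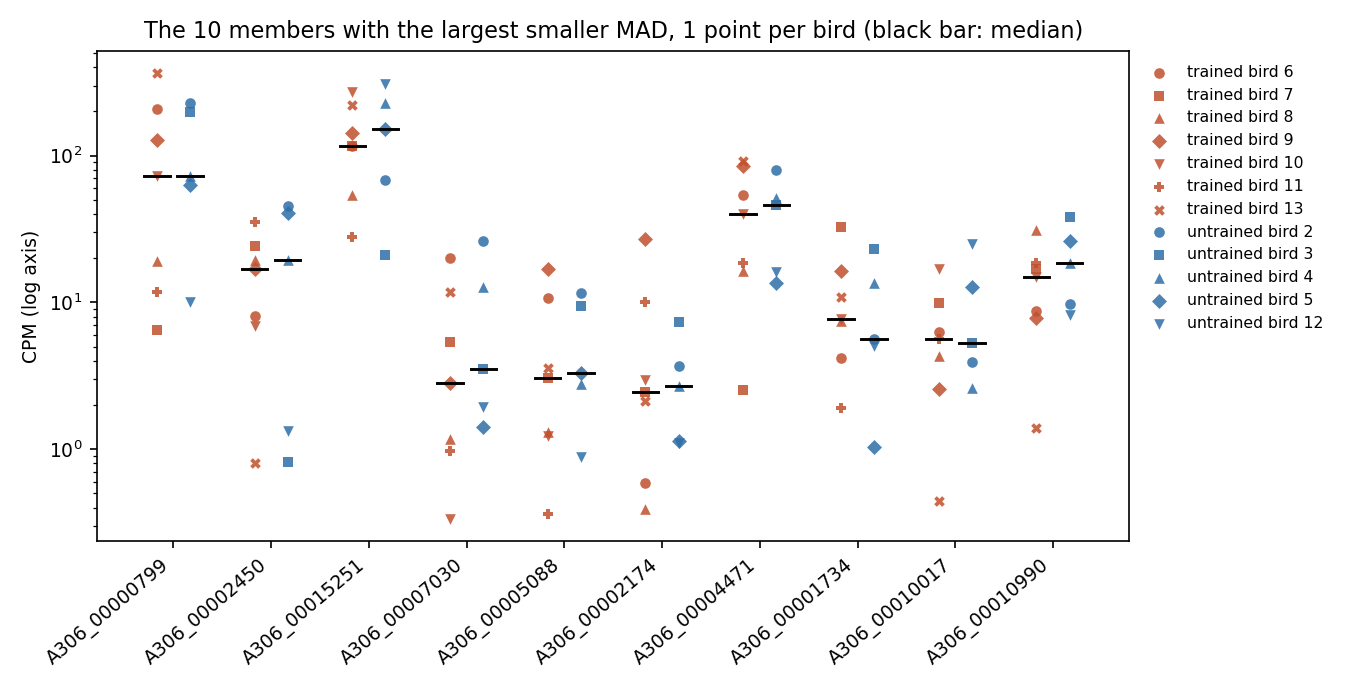
Level in CPM (log axis) of the 10 members with the largest smaller MAD, with 1 point per bird, trained birds left of untrained birds for each tag and the median as a black bar. The bars of the 2 groups lie close together in every tag by the rule, while the birds of each group spread widely, as for A306_00000799 between 6.51 and 365 CPM in trained birds.

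The 3 most abundant members covered 5.07-fold (A306_00002416), 11.3-fold (A306_00002392) and 9.97-fold (A306_00000016) between the lowest and the highest bird. A306_00002416 had 395 CPM in the lowest trained bird, a median of 688 CPM and 1990 CPM in the highest, and 692, 1805, 466, 2002 and 704 CPM in untrained birds 2, 3, 4, 5 and 12. A306_00002392 had 159 CPM in the lowest trained bird, a median of 376 CPM and 1476 CPM in the highest, and 452, 854, 207, 944 and 130 CPM in untrained birds 2, 3, 4, 5 and 12. Trained birds 6 and 11 and untrained birds 3 and 5 were the highest 2 birds of their groups in both tags. A306_00000016 had 92.2 CPM in the lowest trained bird, a median of 193 CPM and 273 CPM in the highest, and 189, 113, 169, 305 and 919 CPM in untrained birds 2, 3, 4, 5 and 12, with untrained bird 12 well above all others.

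No bird accounted for the spread of all members, but trained bird 13 was low in many. It was the lowest trained bird in 27 of 60 members (45%), and in 47.6% of all eligible tags. In 10 members it had less than 1 CPM, and its median distance below the group median was 0.76 log2 units over the members and 0.26 over the eligible tags. These levels are per library sum, and dividing by that bird's TMM factor of 0.752 would raise them. How much of the distance this covers was not tested. Trained bird 13 was also the highest trained bird in 8 members (13.3%), and in 20.7% of all eligible tags. The other trained birds were each lowest in 2 to 10 members and highest in 5 to 13. Among untrained birds, bird 12 was lowest in 17 members (28.3%, against 20.9% of eligible tags). Untrained bird 2 was highest in 17 (28.3%, against 19.2% of eligible tags). The others were lowest in 8 to 14 and highest in 3 to 15. With trained bird 13 left out, 28 of the 60 tags were chosen by the rule again. With the members held fixed, their median smaller MAD was 0.499 without that bird.

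Whether members moved together from bird to bird was examined next, since the rule looked at each tag alone. Members were joined into covarying groups by average linkage on the Pearson correlation of log2(CPM + 1) across the 7 trained birds at a mean correlation of 0.7. The untrained birds took no part in forming the groups. The groups of 4 or more members were 5 in number and held 37 of the 60 members, named here A (13 members), B (9), C (7), D (4) and E (4). The other 23 members joined no such group.

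**Figure D3:**
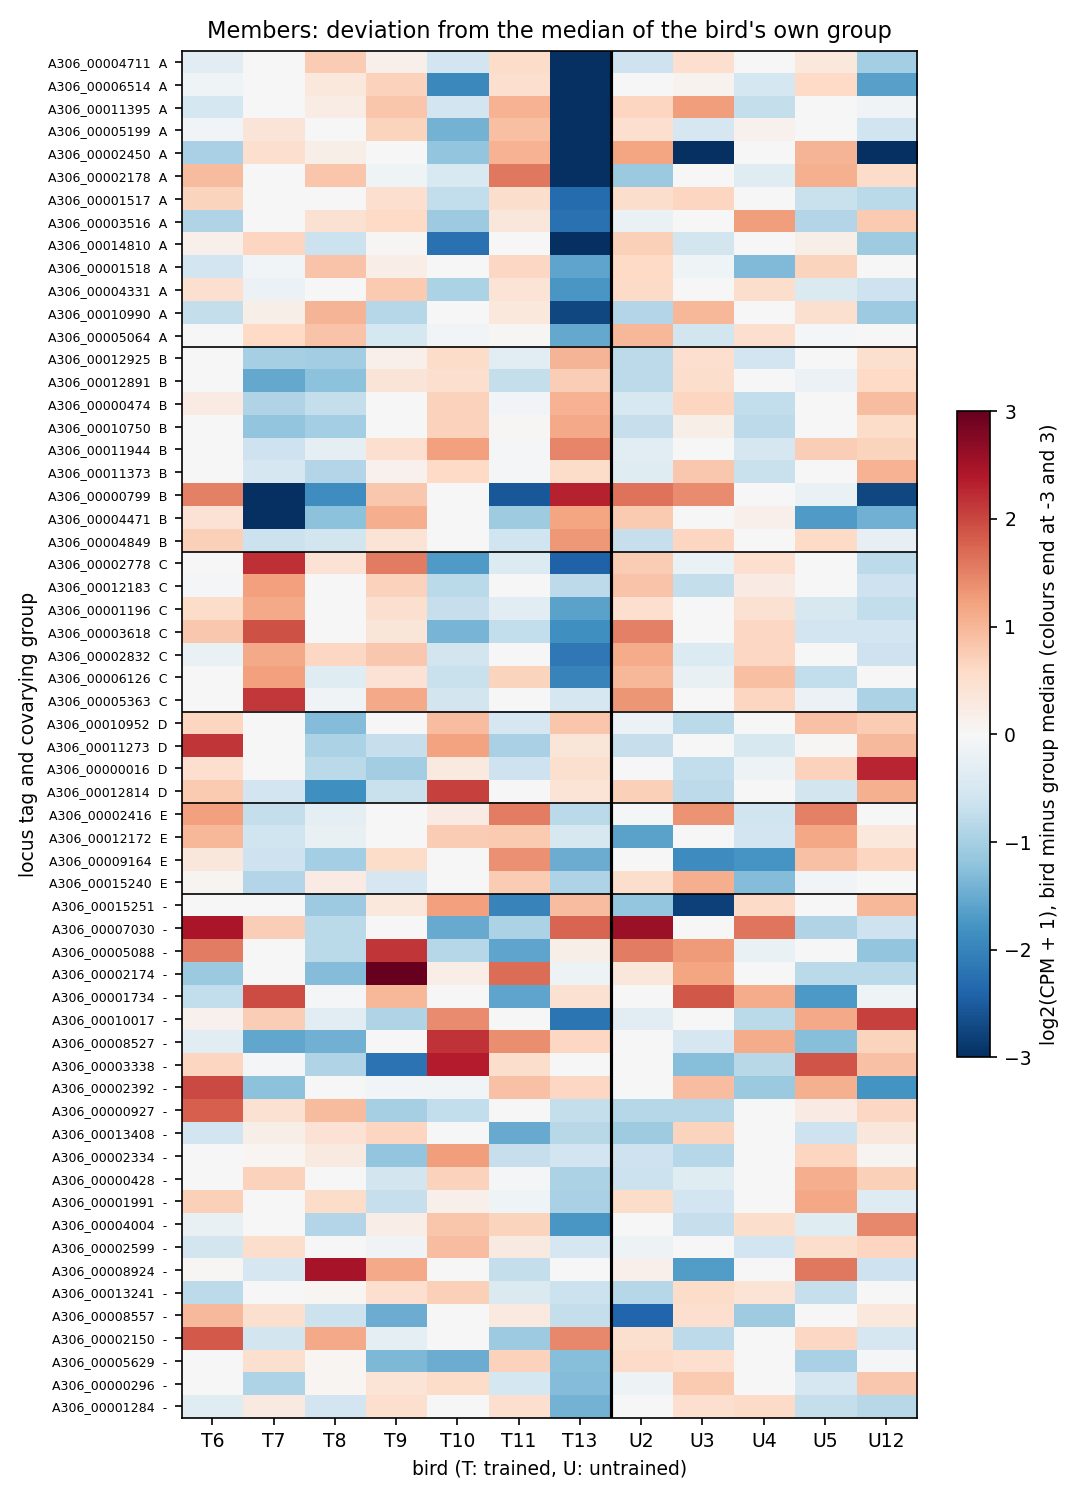
Deviation of each bird from the median of its own group, in log2(CPM + 1), for the 60 members (rows, ordered by covarying groups A to E and then the ungrouped members) in 7 trained birds (left) and 5 untrained birds (right). Group A is low in trained bird 13 throughout, and group C is high in trained bird 7 and untrained bird 2 and low in trained birds 10 and 13 and untrained bird 12.

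Group C kept its shared pattern in the untrained birds, which had not been used to form it. Those birds did help to choose the members, through their MAD. Its median r in untrained birds was the highest of the 5 groups, so group C is singled out here by that value. All 21 pairs of its 7 tags were positively correlated across the untrained birds, with a median r of 0.87 and a lowest r of 0.66, beside a median of 0.89 in the trained birds. The median was 0.82 to 0.91 with 1 trained bird left out and 0.77 to 0.95 with 1 untrained bird left out. All 21 pairs were still positive without any 1 untrained bird, but the lowest r was 0.37 without untrained bird 2. Across pairs of the other eligible tags with r above 0.7 in trained birds, the median r in untrained birds was 0.19, and across such pairs of members it was 0.35. That limit of 0.7 is looser than group C's own trained median of 0.89, so these are not matched backgrounds. These correlations rest on 7 and 5 birds, share each bird's library between all tags and are given as a description.

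The 2 most typical tags of group C show the pattern. A306_00002778 had 1.98 CPM in the lowest trained bird, a median of 15.0 CPM and 72.3 CPM in the highest, and 28.4, 13.9, 23.5, 16.3 and 9.05 CPM in untrained birds 2, 3, 4, 5 and 12. A306_00012183 had 45.9 CPM in the lowest trained bird, a median of 80.5 CPM and 192 CPM in the highest, and 160, 53.7, 104, 88.2 and 57.3 CPM in untrained birds 2, 3, 4, 5 and 12. In both, trained bird 7 was highest, followed by trained bird 9, and untrained birds 2 and 4 led their group.

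Summed over its 7 tags, group C came to 411 CPM in trained bird 7 and 244 CPM in trained bird 9, against 70.7 CPM in trained bird 10 and 58.3 CPM in trained bird 13. Trained birds 6, 8 and 11 had 157, 147 and 129 CPM. Untrained birds 2, 3, 4, 5 and 12 had 323, 119, 213, 142 and 101 CPM. A306_00012183 alone gave 192, 131, 45.9 and 45.9 CPM of the sums in trained birds 7, 9, 10 and 13. All 7 tags lay above the group mean in trained birds 7 and 9 and untrained birds 2 and 4, and all 7 below it in trained birds 10 and 13 and untrained bird 12. In these trained birds depth ran the same way, with total counts of 26876040 and 25390562 in birds 7 and 9 and 17884565 and 13611534 in birds 10 and 13. Trained bird 8 had 15309816, with group C at 0.09 log2 units from the group mean. In the untrained birds depth did not run so, with 17297318 and 18051134 in birds 2 and 4 and 18005553 in bird 12. Untrained bird 3 had 29169918, with group C at -0.31. A part of depth in the pattern was not tested.

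Group B held together in part. Its 36 pairs had a median r of 0.89 in trained birds and 0.39 in untrained birds, where single pairs ran from -0.94 to 0.997 and the median from 0.10 to 0.59 with 1 untrained bird left out. Within it A306_00000474, A306_00010750, A306_00012925 and A306_00011373 had r above 0.9 in every pair and in both groups. They were picked out after their values in both groups were seen, so their likeness is no independent result. A306_00000799 and A306_00004471, which belong to group B by their trained values, had mean correlations of -0.29 and -0.43 with the rest of the group in untrained birds.

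A306_00012925 had 22.9 CPM in the lowest trained bird, a median of 48.0 CPM and 99.1 CPM in the highest, and 25.7, 64, 30, 45 and 63.4 CPM in untrained birds 2, 3, 4, 5 and 12. A306_00010750 had 25 CPM in the lowest trained bird, a median of 58.1 CPM and 128 CPM in the highest, and 35.7, 65.5, 33.5, 58.1 and 85.4 CPM in untrained birds 2, 3, 4, 5 and 12. The high birds were trained birds 13 and 10 and untrained birds 3 and 12, and the low ones trained birds 7 and 8 and untrained birds 2 and 4. The scarcer A306_00012891, the other typical tag of group B, had 0.93 CPM in the lowest trained bird, a median of 4.59 CPM and 8.3 CPM in the highest, and 2.83, 8.5, 5.6, 4.83 and 9.0 CPM in untrained birds 2, 3, 4, 5 and 12.

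These 4 tags of group B and the 7 tags of group C were negatively correlated in both groups of birds. All 28 pairs between them had a negative r, with a median of -0.73 in trained and -0.87 in untrained birds. The tags of each set were alike among themselves, so the 28 pairs are close to 1 comparison of 2 profiles. The 4 tags were also picked after both groups were seen, so the shared sign is a description only. The median lay between -0.89 and -0.60 with 1 trained bird left out, at its weakest without bird 13, and between -0.92 and -0.83 with 1 untrained bird left out. The opposition did not hold in every bird: the mean deviations of both sets had opposite signs in 4 of 7 trained and 4 of 5 untrained birds. In trained bird 9 group C was 0.79 log2 units above the group mean and the 4 tags of group B 0.10 above. In trained bird 6 both were above, by 0.17 and 0.09, and in trained bird 11 group C was at -0.11 and the 4 tags at -0.08. In untrained bird 5 group C was at -0.38 and the 4 tags at -0.002, with 2 of the 4 above the mean.

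**Figure D4:**
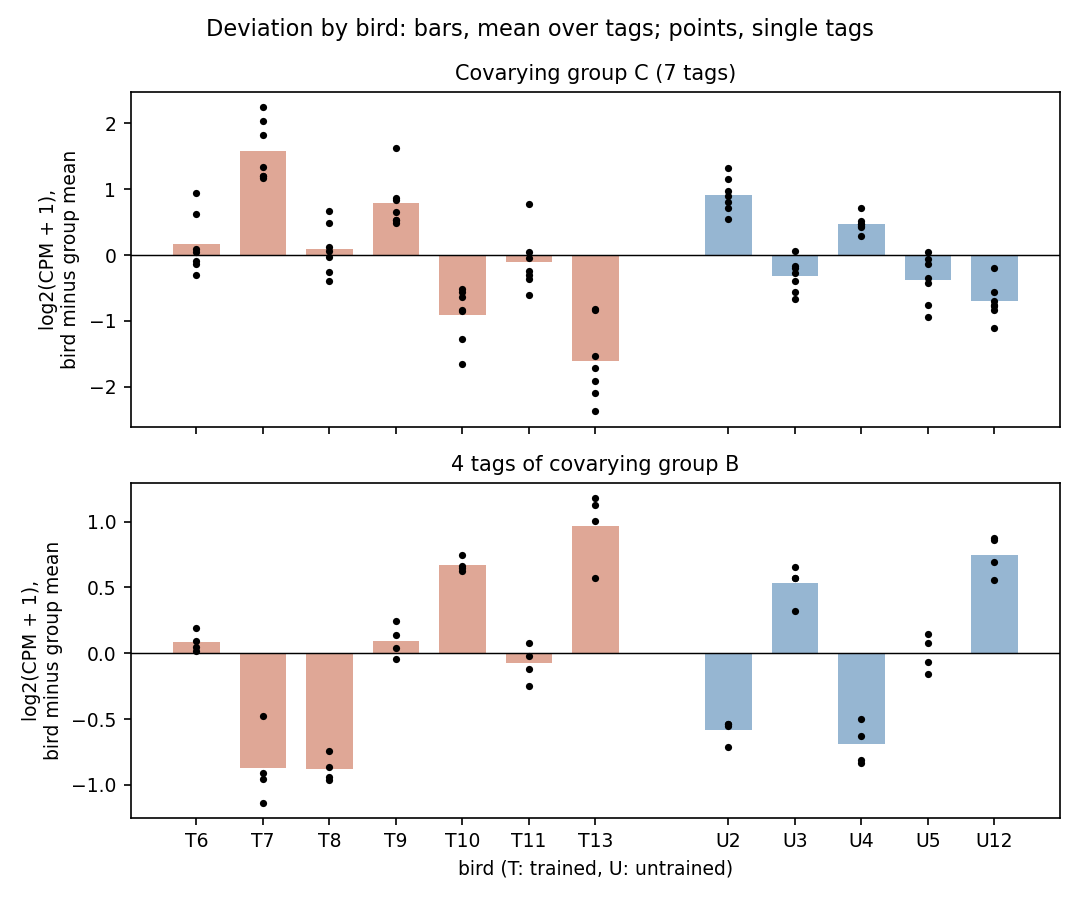
Deviation of each bird from the mean of its own group, in log2(CPM + 1), for the 7 tags of covarying group C (top) and for the 4 tags of group B alike in both groups (bottom), with bars for the mean over tags and points for single tags. Trained bird 7 and untrained birds 2 and 4 are above 0 in the top panel and below 0 in the bottom panel, and trained birds 10 and 13 and untrained bird 12 the reverse.

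Group A, although the largest, rested in large part on 1 library. Its 78 pairs had a median r of 0.88 in trained birds, 0.50 without trained bird 13 and 0.11 in untrained birds, where 44 of 78 pairs were positive. Without trained bird 13 single pairs ran down to -0.43, while A306_00014810 and A306_00005199 kept 0.85, beside 0.96 in untrained birds. This pair was picked out after its values were seen. All 13 tags were below the group mean in trained bird 13, by 2.57 log2 units on average in levels per library sum. A306_00004711 had 1.32 CPM in the lowest trained bird, a median of 35.4 CPM and 60.3 CPM in the highest, and 23, 51.6, 35.8, 44.5 and 17.1 CPM in untrained birds 2, 3, 4, 5 and 12. A306_00006514 had 4.92 CPM in the lowest trained bird, a median of 89.1 CPM and 144 CPM in the highest, and 64.5, 69.3, 44.8, 97.9 and 20.1 CPM in untrained birds 2, 3, 4, 5 and 12. In both, trained bird 13 was far below the next lowest bird.

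Groups D and E were small. The 6 pairs of group D had a median r of 0.79 in trained and 0.58 in untrained birds, where all 6 were positive, but the untrained median was 0.11 without untrained bird 12. Its typical tag A306_00010952 had 3.53 CPM in the lowest trained bird, a median of 10.2 CPM and 20.1 CPM in the highest, and 9.42, 5.66, 10.7, 20.6 and 18.8 CPM in untrained birds 2, 3, 4, 5 and 12. Its other typical tag A306_00011273 had 4.23 CPM in the lowest trained bird, a median of 9.26 CPM and 44.7 CPM in the highest, and 7.75, 13.2, 9.14, 13.6 and 26.8 CPM in untrained birds 2, 3, 4, 5 and 12. The 6 pairs of group E, which holds A306_00002416, had a median r of 0.78 in trained and 0.26 in untrained birds, and that untrained value lay between -0.06 and 0.62 with 1 untrained bird left out. Its second typical tag A306_00012172 had 5.8 CPM in the lowest trained bird, a median of 9.26 CPM and 19.4 CPM in the highest, and 1.62, 6.96, 4.32, 16.6 and 8.89 CPM in untrained birds 2, 3, 4, 5 and 12.

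**Figure D5:**
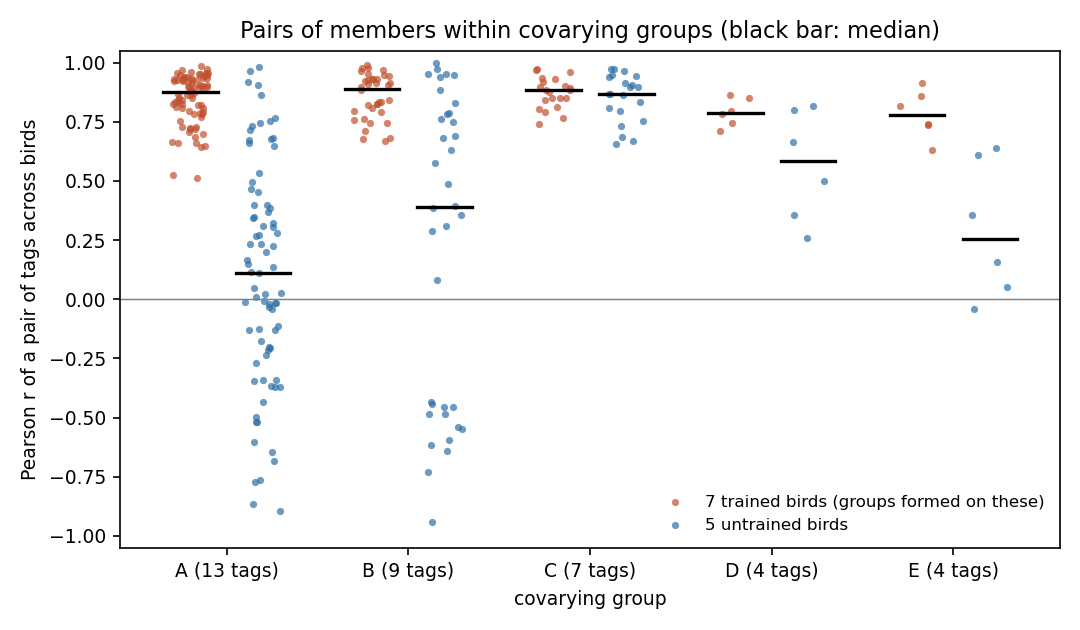
Pearson r across birds for every pair of members within covarying groups A to E, over the 7 trained birds on which the groups were formed (left of each pair of columns) and over the 5 untrained birds (right), with medians as black bars. In untrained birds the medians are 0.11, 0.39, 0.87, 0.58 and 0.26 for groups A to E, and the lowest pair of group C is at 0.66.

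Over all 1770 pairs of members, 13 (0.734%) had r above 0.9 in trained birds and in untrained birds alike, against 0.221% of 13710466 pairs of the other eligible tags. Without trained bird 13 the shares were 0.621% and 0.0826%. Pairs below -0.9 in both groups of birds made up 0.0565% among members, which was 1 pair, and 0.0712% among the other eligible tags. High correlations within trained birds alone were not more frequent in members, with 12.7% of pairs above 0.7 against 16.3% in the other eligible tags. Without trained bird 13 these were 8.25% and 9.22%. Within untrained birds 12.8% of pairs of members were above 0.7, against 11.6%. The 4 tags of group B gave 6 of the 13 pairs above 0.9. Members were chosen for spread, and their median MAD was 9.97 and 11.6 times counting error in trained and untrained birds. In the other eligible tags it was 5.09 and 3.9 times. Whether counting error has a part in these differences was not tested. Tags share libraries and members, so these shares are a description with no test.

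Members were scattered along the order of the locus tags. The median gap between consecutive members was 178 tag numbers, and 1 pair lay within 3 numbers, A306_00001517 and A306_00001518. A306_00001517 had 0.661 CPM in the lowest trained bird, a median of 7.25 CPM and 12.1 CPM in the highest, and 14, 15.4, 9.47, 5.62 and 5.0 CPM in untrained birds 2, 3, 4, 5 and 12. A306_00001518 had 8.67 CPM in the lowest trained bird, a median of 27.8 CPM and 50.8 CPM in the highest, and 31, 18.4, 7.53, 32.8 and 20.3 CPM in untrained birds 2, 3, 4, 5 and 12. Their r was 0.71 in trained and -0.11 in untrained birds, so the neighbours did not move together in both groups. Both were lowest in trained bird 13 within their group.

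The comparison of trained with untrained birds was used by the rule, through the limit on the medians, and is given for the members as a description only. Over all 11047 genes tested, 6.45% were called by the quasi-likelihood test of edgeR (Benjamini-Hochberg threshold of 0.05), and 0 of the 60 members. DESeq2 called 0 members and 13.3% of all genes. An unadjusted p under 0.05 was found for 1 member and 24.8% of all genes in edgeR, and for 2 members and 23.6% of all genes in DESeq2. Trained and untrained birds overlapped in all 60 members, while they did not overlap in 2.54% of all genes tested. Like medians and wide spread within both groups were conditions of the choice, so nothing is read from these counts. The median log2 fold change of the members was -0.01, against 0.04 over all genes tested, and the median standard error was 0.53 against 0.32. A larger standard error follows from the choice by spread. It was computed as the absolute log2 fold change over the square root of the F statistic.

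The extreme fold changes among the members had standard errors of 0.41 to 0.90, beside a median of 0.53 over all members. A306_00002174 had the highest log2 fold change, 1.01 ± 0.90 (SE), which was -0.02 without trained bird 9 and 1.61 without untrained bird 3. A306_00000927 followed with 0.78 ± 0.55 (SE), from 2.32 CPM in the lowest trained bird, a median of 5.67 CPM and 22.0 CPM in the highest, and 2.25, 2.3, 4.93, 6.01 and 8.11 CPM in untrained birds 2, 3, 4, 5 and 12. Without trained bird 6 its log2 fold change was 0.31. At the other end A306_00000296 had -1.08 ± 0.41 (SE), from 1.03 CPM in the lowest trained bird, a median of 4.0 CPM and 6.32 CPM in the highest, and 5.38, 11.1, 6.04, 3.99 and 11.4 CPM in untrained birds 2, 3, 4, 5 and 12. A306_00004004 had -0.86 ± 0.42 (SE), from 6.98 CPM in the lowest trained bird, a median of 26 CPM and 47.3 CPM in the highest, and 36.9, 22.3, 53.8, 28.2 and 102 CPM in untrained birds 2, 3, 4, 5 and 12. Without untrained bird 12 the value of A306_00004004 was -0.40. That of A306_00000296 was -1.25 to -0.88 with 1 bird left out. None of these 4 passed the threshold with all birds.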

How the data were processed

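Per the labels' protocols, RNA was isolated with TriReagent and libraries were prepared with a TruSeq RNA kit. The authors deposited raw read counts per locus tag, 1 file per library. Tools listed in the submitters' processing notes are STAR, HTSeq, DESeq2, FastQC 0.11.5 and bcl2fastq 2.20. Genome build, annotation and strand use: not given in the sources used here. Ambiguous reads (0.174% to 0.353% of the reads in a file) and alignments that were not unique (4.56% to 6.25%) were counted to no tag. Overlapping genes and near-identical copies may therefore lose reads. Summary rows naming no gene (24.0% to 27.0% of the reads in a file) were left out.

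The rule was applied as described, with unscaled MADs, in Python 3.11.15. Group differences were fitted with edgeR 4.0.16 (TMM, filterByExpr, robust quasi-likelihood F test) over all 12 libraries, with Benjamini-Hochberg adjustment over all genes tested. DESeq2 1.42.0, other scalings, pseudocounts, filters and left-out birds were the alternatives. Scripts were tested on simulated data. The members, lists and named tags were chosen with earlier results of these data known. Named tags are the 10 of largest smaller MAD, the 2 on each side of the limit, the 3 most abundant, 2 per covarying group by mean correlation, neighbours within 3 tag numbers and the 2 highest and 2 lowest fold changes. Marker and pathway lists could not be applied without gene names. The labels do not say more of how samples were taken, so p-values measure the spread between these birds' libraries.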

Additional observations from a re-analysis of the deposited data

Results flagged for a closer look

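Of 79 sets of values (each named member and covarying group within trained and within untrained birds, and 3 summaries of the members), 4 held a bird whose gap to the nearest other bird was large for the range of its group. Chance alone picks out about 1 in 20 such sets if they are normal and independent. The tags here were chosen for their spread in these same birds, so that share is no reference for the 4 of 79. All 4 were trained bird 13. They share tags and 1 library, with A306_00004711 itself in group A, so they are not separate observations. A306_00004711 was at 1.22 in trained bird 13 on the log2(CPM + 1) scale, against 4.6 in the next lowest trained bird. The mean deviation of covarying group A was -2.57 log2 units in trained bird 13, against -0.49 in the next lowest. Its median deviation from the trained median over the 60 members was -0.76, against -0.02 in the next lowest trained bird. Its median absolute deviation over the members was 1.15, against at most 0.69 in the other trained birds. These levels are per library sum, without that bird's TMM factor of 0.752.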

How the results depend on the processing

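Of the 60 tags, 38 were chosen again with DESeq2's size factors, 35 with a pseudocount of 5, 39 with a mean of at least 10 CPM, 24 with the SD in place of the MAD and 17 with no limit on the medians. Without untrained bird 5 and trained bird 13 together 13 were chosen again, and with 1 bird left out 14 to 35. TMM scaling, a pseudocount of 0.5, a minimum of 1 CPM and no excluded tags gave 40 to 56. The cause of these changes was not tested. The median smaller MAD of the fixed members was 0.396 to 0.585 over its 16 alternatives. No member (0) was called by edgeR with 1 bird left out, where 0.992% to 16.9% of all genes were called and 0 to 3 members had an unadjusted p under 0.05, and 1 was called without untrained bird 5 and trained bird 13 together, A306_00000296 (adjusted p = 0.0466, edgeR), where 26.6% of all genes were called. Covarying groups held 24 members at a mean correlation of 0.8 and 29 to 43 with 1 bird left out. Group C's 7 tags stayed in 1 group under TMM scaling and at mean correlations of 0.5 (in a group of 20) and 0.8. With Spearman's correlation 6 of them stayed together, and covarying groups held 26 members. With 1 trained bird left out 5 to 7 stayed together, in groups of 5 to 21 members. Leaving birds out of fixed groups and the 4 tags of group B were chosen after seeing the data. No paired analysis was possible because the labels pair no trained bird with an untrained bird. Depth limits the lowest values: 9 members had under 10 counts in some bird.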

Other observations

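Group C was followed by tags outside the members. Of the 5237 other eligible tags, 48 (0.917%) had r above 0.9 with the mean of its 7 tags in trained birds and again in untrained birds. Their median smaller MAD was 0.2 and their median level 41.0 CPM. Group C itself was lowest in trained bird 13, at -1.61 log2 units from the group mean, and its followers were not counted without that bird. Among pairs of single other eligible tags, 0.221% had r above 0.9 in both groups of birds, and 0.0826% without trained bird 13. These shares are no matched background for a mean of 7 tags. The 4 members of group D were followed by 0 tags, group B by 1 and group E by 3. Group A was followed by 87 (1.66%), in trained birds whose values for it rest in large part on bird 13. Means over more tags carry less noise, so these numbers are not comparable between groups of unequal size.

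Of the members, A306_00010017, A306_00012814, A306_00002832 and A306_00008557 were chosen again in 10 of the 12 repeats with 1 bird left out, the most of any member. A306_00002832 belongs to group C.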
